A study of Homo sapiens and Mus musculus with 69 samples.

Results

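Small cell lung cancer (SCLC) cells carry nicotinic acetylcholine receptors, and the transcripts of 10 of their subunit genes were followed here: *CHRNA1*, *CHRND*, *CHRNG* and *CHRNE* of the muscle type, *CHRNA3*, *CHRNA5* and *CHRNB4* of the ganglionic type, *CHRNA4* and *CHRNB2* of the main brain type, and *CHRNA7*. The 10 genes were selected on measured values, because *CHRNA1* and *CHRND* are among the genes lowered most by the intracellular domain of *NOTCH1* (*N1ICD*) in H82 cells, so that comparison is given as a description with no test. All 10 are among the 20516 genes of the human table, and 9 are among the 18501 genes of the mouse table, which does not list *Chrne*.

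Nicotinic receptors are rings of subunits around a cation channel that opens when acetylcholine or nicotine binds between an α subunit and its neighbor. At the neuromuscular junction the ring holds α1, β1 and δ with γ before birth or ε after it, in autonomic ganglia mainly α3 and β4 with α5 as an accessory subunit, and in brain mainly α4 with β2 or α7 alone. In lung, nicotine acts on receptors of airway epithelium and of pulmonary neuroendocrine (NE) cells, and the cluster of *CHRNA5*, *CHRNA3* and *CHRNB4* is known from studies of inherited lung cancer risk.

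The study asked what Notch signaling does to the immune phenotype of SCLC, and measured polyA RNA in 69 libraries, with 60 from 4 human lines and 9 from KP1, a mouse line, and 3 libraries per group. Human groups were parental H82, H524 and H69 cells, the same lines with a lentiviral vector that expresses *N1ICD* under doxycycline (dox), each without and with dox, and H524 cells with a dox-inducible *REST* vector, without and with dox. H82 *N1ICD* cells labelled *REST* KO and *STING1* KO (made with Cas9) were also cultured without and with dox. COR-L88 cells were treated with the vehicle DMSO, with TAS1440, a reversible inhibitor of the histone demethylase LSD1, or with TAS1440 plus a γ-secretase inhibitor (GSI), which blocks Notch cleavage, and COR-L88 cells labelled *STING1* KO received DMSO or TAS1440. KP1, an SCLC line from mice lacking *Rb1* and *Trp53*, received DMSO, TAS1440 or TAS1440 plus GSI. In the study's methods the GSI of KP1 was another compound, at another dose, than that of COR-L88. The labels give no culture time and do not say whether the 3 libraries of a group came from separate cultures, so *P* values measure only the spread between libraries, which may be technical. In the study's methods and legends, cells were transduced with virus and drug-selected, and each Cas9 edit used a single target sequence. Both *REST* KO and *STING1* KO cells were shown as single-cell clones, so a clone effect cannot be told apart from the edit. Cultures were long, and with the inducible vectors only adherent cells were collected. How far that harvest moved a value was not tested.

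Values are log2(RPKM + 1), called log2 values below, where RPKM is reads scaled to gene length and library size, so levels can be compared between genes of a table. The human and KP1 tables were normalized separately, and their levels are not compared. In bulk RNA, fewer cells expressing a gene and less RNA per cell cannot be told apart. The *NOTCH1* log2 value was 4.26 to 10.74 with dox in *N1ICD* cells and 0.38 to 2.15 without. In H524 *REST* cells *REST* was 6.87 to 10.72 with dox and 4.90 to 5.05 without. In cells labelled *REST* KO, *REST* was still 3.99 to 4.20 without dox and 4.95 to 5.89 with it, beside 4.42 to 4.80 and 6.13 to 6.48 in H82 *N1ICD* cells. *STING1*, listed as *TMEM173*, was 0.11 to 0.55 and 1.27 to 2.04 in H82 cells labelled *STING1* KO, beside 0.00 to 0.04 and 1.07 to 1.17 in H82 *N1ICD* cells. A transcript level does not check a small Cas9 edit, so the RNA values leave these labels unchecked. The study itself showed immunoblots of its *REST* KO and *STING1* KO clones, and the labels do not say which clone gave a library. A gene was called when its adjusted P was under 0.05 and its log2 difference at least 1 in size, and a gene was tested in a line if 3 or more of its libraries had a log2 value of 1 or more (the filter on low values). The 8 NE markers summed to 30.4 to 52.9 in untreated human groups and to 6.86 to 40.6 in *N1ICD* cells with dox. Over the same *N1ICD* cells the 3 fibroblast markers *COL1A1*, *PDGFRB* and *DCN* summed to 0.783 to 5.18 without dox and to 12.1 to 21.0 with it, and the part of this shift in the subunit results was not tested. The 3 leukocyte markers summed to at most 1.18 in any library.

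The sequences upstream of the gene pair that the selection turned on are shown because the proteins of *MYOD1* and *NEUROD1* bind E-boxes, short motifs of the letters CANNTG. RefSeq promoters (build GRCh38.p14, 250 bases before to 50 after the start) matched 7 of the 10 genes, and *CHRNA4*, *CHRNA5* and *CHRNG* were not matched. The last 120 bases before the start are printed 5′ to 3′ on the strand of the gene, at chr2:174764473-174764592 (minus strand) for *CHRNA1* and chr2:232526040-232526159 (plus strand) for *CHRND*, with CAGCTG and CAGGTG (or its complement CACCTG) in capitals.
CHRNA1: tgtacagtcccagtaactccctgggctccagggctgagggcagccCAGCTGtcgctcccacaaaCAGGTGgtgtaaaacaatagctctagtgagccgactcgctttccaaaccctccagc
CHRND: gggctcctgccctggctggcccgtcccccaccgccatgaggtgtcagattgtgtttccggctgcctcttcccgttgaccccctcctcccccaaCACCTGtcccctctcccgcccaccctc

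Of the 35116 RefSeq promoters of 300 bases searched on both strands, 17.9% held CAGCTG and 20.6% held CAGGTG, both of which are kinds of CANNTG, which 68.7% held. The *CHRNA1* promoter held 1 of each, starting 75 and 56 bases before the start, and the *CHRND* promoter held 1 CAGGTG, 27 bases before it. *CHRNE* held 2 CAGCTG and 1 CAGGTG, *CHRNB4* 1 of each, *CHRNA3* 1 CAGGTG, and *CHRNB2* and *CHRNA7* neither. Of all promoters, 8.33% held 2 or more of CAGCTG and CAGGTG together. Counting every CANNTG, *CHRNE* held 4, *CHRNA1* 3, *CHRND* and *CHRNB4* 2 each, and *CHRNA3*, *CHRNB2* and *CHRNA7* 1 each. A match is a description of letters and not of binding. A second motif, RE1, is the element bound by the repressor *REST*. On GRCh37, the build of the human table, the RE1 consensus lay within 1000 bases of the gene start in 0.670% of 20163 protein-coding genes. Among the 10 subunit genes only *CHRNB2* held it, in an exon annotated as UTR, 176 bases into the gene at chr1:154540430-154540446 on the plus strand of the gene. The whole site is in capitals.
CHRNB2: TTCAGCACCACGGACAG

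*CHRNB2*, which encodes β2, was the one subunit gene with a high level in untreated cells of all 4 human lines. Its group mean was 7.50 to 9.85 in 13 of the 20 human groups and 1.57 to 4.70 in the other 7, and every library held it at 1.11 or more. *CHRNA1*, which encodes the ligand-binding α1 of muscle, had a mean of 5.53 to 9.65 in 8 groups, all of H82 and H524, and of 0 to 2.63 in the other 12. *CHRND*, which encodes δ, spread more evenly, with 4.21 to 8.49 in 9 groups and 0 to 3.12 in 11. In the order of group means, neighboring groups had overlapping libraries in 14 of 19 steps for *CHRNA1*, 17 for *CHRND* and 15 for *CHRNB2*. Sorting by the mean places like groups side by side, so these counts limit only how finely the order can be read. *CHRNA5*, the accessory α5, was present in all 60 libraries at 1.06 to 3.91. *CHRNA3*, *CHRNB4*, *CHRNA7* and *CHRNE* reached 1 in 20, 17, 35 and 35 of the 60 libraries. *CHRNA4* reached 1 in 1 library, and *CHRNG*, the fetal muscle subunit, in none, with 49 libraries listed at 0. The *CHRNG* gene starts 3024 bases beyond the end of *CHRND* on chromosome 2.

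**Figure D1:**
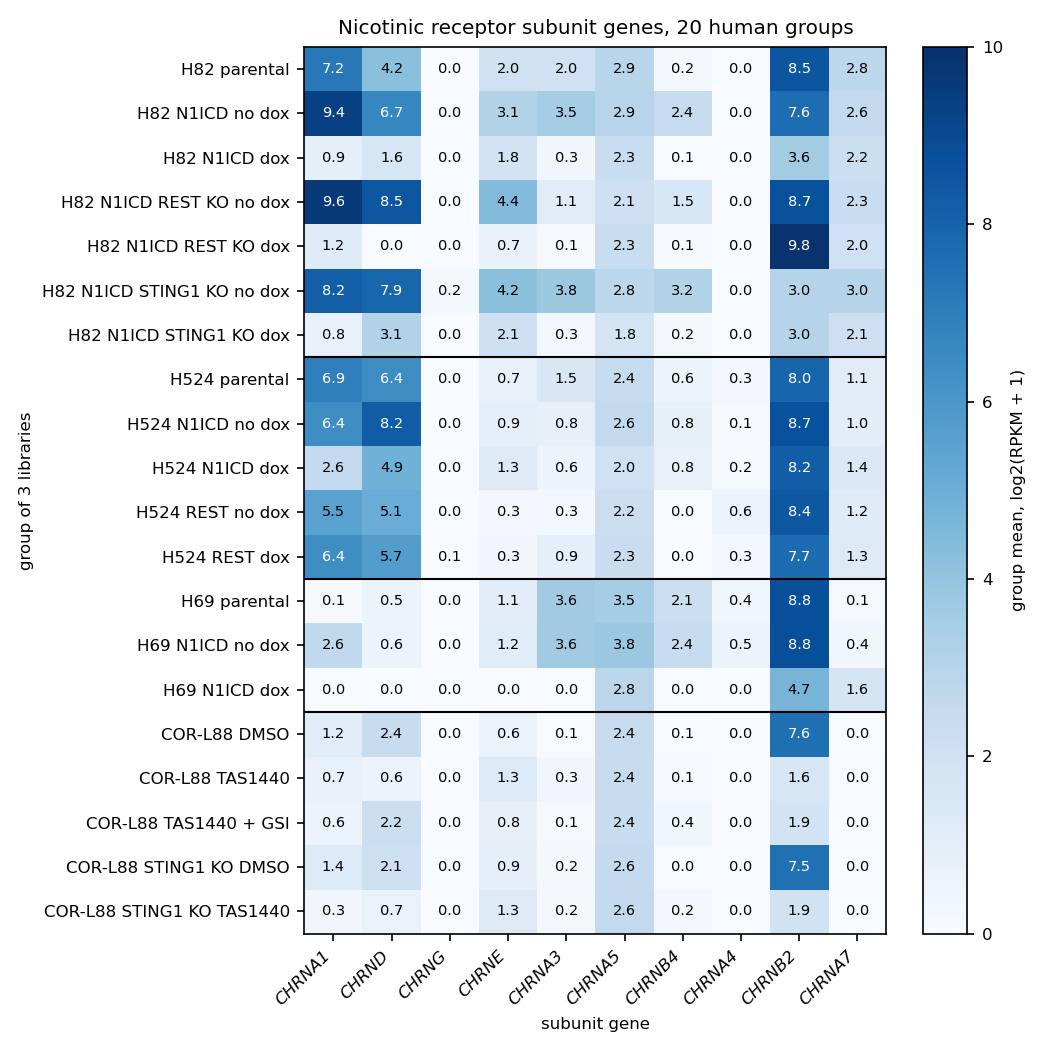
Group mean log2(RPKM + 1) of 10 subunit genes (columns) in 20 human groups of 3 libraries (rows, black lines between cell lines; darker blue is higher). *CHRNB2* is the one column that is dark in all 4 lines, *CHRNA1* and *CHRND* are dark in H82 and H524 only, and *CHRNG* and *CHRNA4* stay under 1 throughout.

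The comparison that the genes were picked on was H82 *N1ICD* cells with and without dox. *CHRNA1* had log2 values of 8.32, 10.07 and 9.69 without dox and 0.23, 1.51 and 0.86 with it. *CHRND* stood at 5.33, 7.30 and 7.38 without dox and at 1.26, 1.61 and 1.86 with it. The groups did not overlap for either gene, as the choice of the genes implies. Ranked from the most lowered of 13903 genes, *CHRNA1* was 2nd with a difference of -8.49 and *CHRND* 21st with -5.10. *CHRNB2* was 64th (-4.04), *CHRNA3* 140th (-3.20), *CHRNB4* 291st (-2.38) and *CHRNE* 1159th (-1.29). *CHRNA5* and *CHRNA7* differed by -0.62 and -0.36. Thus 6 of the 8 subunit genes tested were past a log2 difference of -1 and the threshold used elsewhere, where 27.1% of all genes were past it in either direction, and nothing is read from this count. In parental H82 cells *CHRNA1* was 7.51, 7.63 and 6.50, *CHRND* 5.86, 4.74 and 2.04, and *CHRNB4* 0.35, 0.13 and 0.22 against 2.98, 2.51 and 1.84 in *N1ICD* cells without dox. The level before dox therefore depended on which untreated H82 cells are considered, and no test is given because the *N1ICD* libraries chose the genes.

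**Figure D2:**
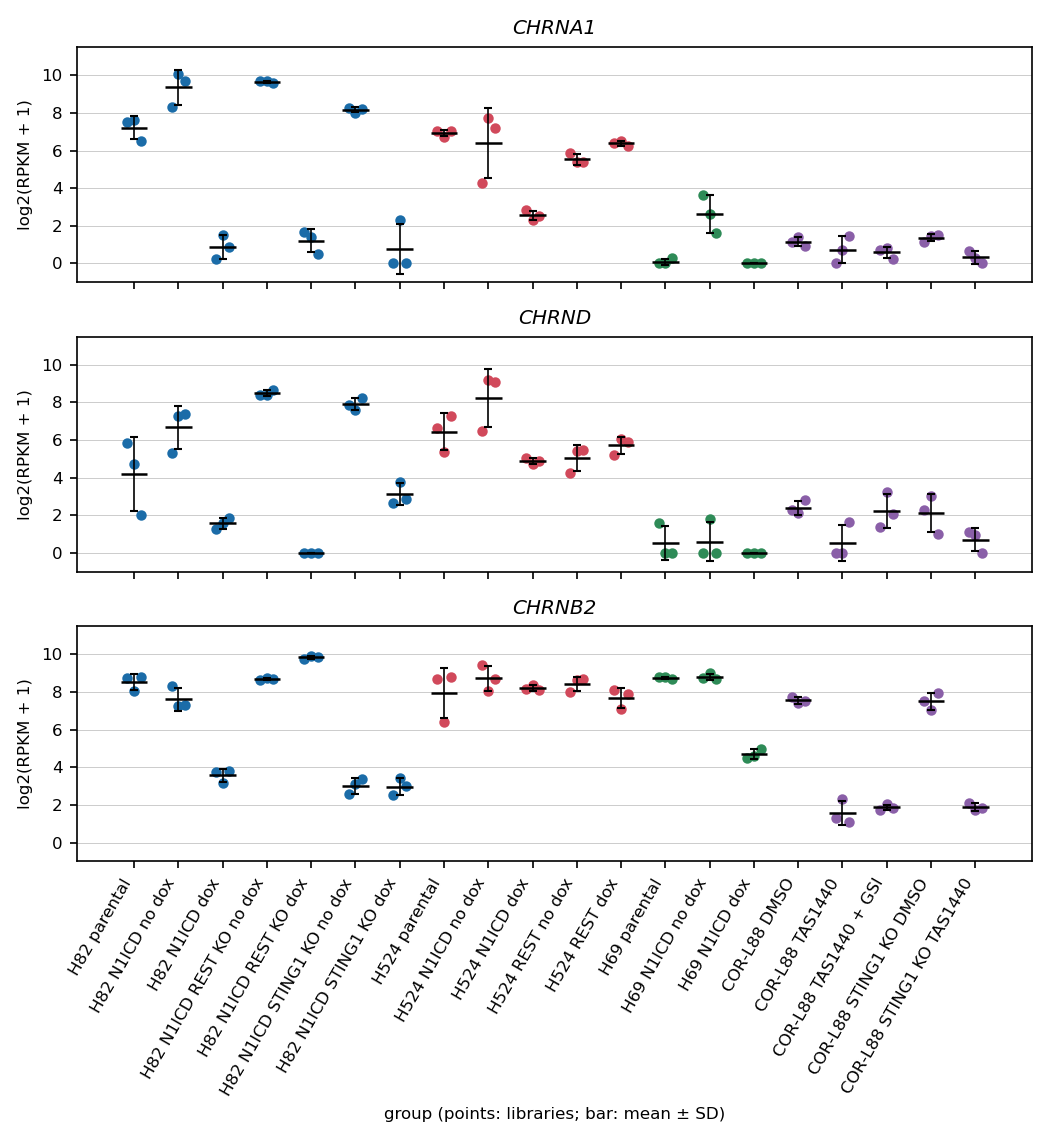
Log2(RPKM + 1) of *CHRNA1*, *CHRND* and *CHRNB2* in each of 60 human libraries (points, colored by line) with the mean and SD of 3 libraries per group (black). *CHRNA1* falls with *N1ICD* in all 3 H82 backgrounds, whereas *CHRNB2* is at 9.78 to 9.92 in H82 cells labelled *REST* KO with dox and already at 2.57 to 3.36 without dox in H82 cells labelled *STING1* KO.

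The H82 cells labelled *REST* KO are libraries that the selection did not use. *CHRNA1* and *CHRND* fell in them with *N1ICD*, and *CHRNB2* rose. *CHRNA1* was 9.67, 9.69 and 9.59 without dox and 1.68, 1.42 and 0.52 with it, a log2 fold change of -8.44 ± 0.54 (SE; adjusted *P* = 4.09e-10, limma with Benjamini-Hochberg adjustment over all genes tested, as throughout). *CHRND* was 8.41, 8.40 and 8.67 without dox and listed at 0 in all 3 libraries with dox (adjusted *P* = 5.76e-09), so no fold is given. The groups of both genes lay far apart. *CHRNE*, which encodes the adult ε, was 4.61, 4.51 and 4.22 without dox and 0.76, 1.07 and 0.30 with it (-3.73 ± 0.36, adjusted *P* = 9.93e-08). The 3 muscle-type genes that could be tested thus fell, in a comparison where 29.9% of all genes tested were called.

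*CHRNB2* moved the other way in the cells labelled *REST* KO. It was 8.63, 8.72 and 8.70 without dox and 9.78, 9.92 and 9.85 with it, 1.16 ± 0.29 higher (adjusted *P* = 0.00288), and all 3 libraries with dox were above those without. The ganglionic *CHRNB4* (1.23, 1.37 and 1.99 to 0.11, 0.13 and 0.13) fell by 1.41 on the log2 scale (SE 0.24, adjusted *P* = 7.92e-05). *CHRNA3* (0.85, 0.88 and 1.59 to 0.03, 0.06 and 0.20) fell by 1.01 (SE 0.41, adjusted *P* = 0.0478), a call that was lost when any of the 6 libraries was left out and without the filter on low values. *CHRNA5* and *CHRNA7* did not pass the test. In all, 1 of 8 subunit genes tested rose and 5 fell (background: 29.9% of 13903 genes called), with a median log2 fold change of -1.21 against -0.01 over all genes tested.

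H82 cells labelled *STING1* KO started from another *CHRNB2* level. Without dox *CHRNB2* was 2.57, 3.09 and 3.36, below every library of the other H82 groups without *N1ICD* induction (7.25 to 8.78), and with dox it was 2.54, 3.41 and 2.99 (-0.03 ± 0.29, adjusted *P* = 0.951). The other subunits were not low at the start. *CHRNA1* was 8.28, 8.02 and 8.20 without dox and 0, 2.32 and 0 with it (-7.39 ± 0.54, adjusted *P* = 6.09e-09). *CHRND* was 7.89, 7.58 and 8.22 without dox and 2.67, 3.80 and 2.90 with it (-4.77 ± 0.66, adjusted *P* = 1.65e-05). *CHRNE* fell from 4.28, 4.59 and 3.76 to 1.57, 2.90 and 1.81 (-2.12 ± 0.36, adjusted *P* = 0.000144). These 3 genes were called in a comparison where 20.2% of all genes tested were called.

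The ganglionic cluster on chromosome 15 also fell in the cells labelled *STING1* KO. *CHRNA3* went from 3.50, 3.55 and 4.31 to 0.10, 0.40 and 0.29 (-3.53 ± 0.41, adjusted *P* = 2.17e-06), *CHRNB4* from 2.91, 3.02 and 3.53 to 0.06, 0.36 and 0.14 (-2.97 ± 0.24, adjusted *P* = 1.83e-08), and *CHRNA5* from 2.87, 2.70 and 2.82 to 1.06, 2.24 and 2.07 (-1.01 ± 0.24, adjusted *P* = 0.00245). The change of *CHRNA5* was under the minimum fold without library 55, 57 or 58, and -0.64 without the last. *CHRNA7* was lower by 0.86 (SE 0.20, adjusted *P* = 0.00205), under the minimum fold. So 6 of 8 subunit genes fell and none rose (background 20.2%), with a median of -2.54 against 0.01 over all genes. The sum of the 8 NE markers in these cells was 30.4 to 35.3 without dox, against 41.0 to 45.3 in the other H82 groups without induction, and *REST* was 5.17 to 5.35 against 3.99 to 5.33. The part of either in the *CHRNB2* level was not tested.

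A direct test of the difference between the dox responses of the cells labelled *STING1* KO and *REST* KO passed for 5 of 8 subunit genes (background 13.0%). *CHRNA3* (-2.51 ± 0.58, adjusted *P* = 0.00533) and *CHRNB4* (-1.56 ± 0.34, adjusted *P* = 0.00295) fell more in the cells labelled *STING1* KO, where both also started higher. For *CHRNA5* (-1.25 ± 0.33, adjusted *P* = 0.0137) the mean was lower with dox in the cells labelled *STING1* KO and went from 2.09 to 2.34 in those labelled *REST* KO, and without library 58 the difference was -0.89, under the minimum fold. *CHRND* and *CHRNE* fell less in the cells labelled *STING1* KO (adjusted *P* = 0.00992 and 0.0376). For *CHRND* the size of that difference is set by the 3 libraries listed at 0, and the call of *CHRNE* was lost in 7 of the 12 fits without 1 library. *CHRNA1* did not differ past the threshold (1.05 ± 0.77, adjusted *P* = 0.414), and *CHRNB2* missed it (-1.19 ± 0.42, adjusted *P* = 0.0593), although it passed with quantile normalization (-1.53, adjusted *P* = 0.0131), with only the compared groups (adjusted *P* = 0.0204) and without library 55 or 59 (adjusted *P* = 0.0354 and 0.0348).

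H524 is, like H82, a line with high *NEUROD1*, and it kept *CHRNB2*. *CHRNA1* was 4.27, 7.73 and 7.20 in *N1ICD* cells without dox and 2.82, 2.33 and 2.52 with it (-3.84 ± 0.61, adjusted *P* = 0.000273). *CHRND* was 6.46, 9.18 and 9.10 without dox and 5.03, 4.73 and 4.88 with it (-3.37 ± 0.64, adjusted *P* = 0.00117). Library 22 was the lowest untreated library for both genes, and without it the changes were -4.91 and -4.26. *CHRNB2* was 9.42, 8.06 and 8.71 without dox and 8.17, 8.37 and 8.11 with it, groups that overlapped (-0.51 ± 0.53, adjusted *P* = 0.504), with -0.17 without library 22 and -0.85 without library 23. *CHRNE*, *CHRNA3*, *CHRNA5* and *CHRNA7* did not pass the test either, so 2 of 7 subunit genes fell and none rose (background 18.6%, median -0.51 against -0.02 over all genes).

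Expression of *REST* alone in H524 moved no subunit gene past the threshold (0 of 7, background 1.87%), and none had an unadjusted *P* under 0.05. *CHRNA1* was 5.87, 5.37 and 5.37 without dox and 6.40, 6.51 and 6.25 with it. *CHRND* was 4.27, 5.43 and 5.47 without dox and 5.22, 6.06 and 5.91 with it. Both genes were thus no lower with *REST*, and for *CHRNA1* the groups did not overlap. *CHRNB2*, the gene with the RE1 match, was 8.01, 8.64 and 8.67 without dox and 8.12, 7.07 and 7.88 with it (-0.75 ± 0.53, adjusted *P* = 0.501). The lowest of these, library 38, also had the highest *REST* level of the 60 libraries, 10.72, and without it the *CHRNB2* difference was -0.44. Nothing is read from 1 library, and a relation between the 2 levels was not tested.

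The responses of H524 to *N1ICD* and to *REST* differed for *CHRNA1* (-4.69 ± 0.87, adjusted *P* = 0.00164) and *CHRND* (-4.04 ± 0.91, adjusted *P* = 0.00655), 2 of 7 subunit genes (background 15.6%). Between the 2 dox groups themselves *CHRNA1* was lower with *N1ICD* (-3.83 ± 0.61, adjusted *P* = 0.000218), 1 of 7 genes called (background 23.8%), and *CHRND* was not past the threshold (-0.86 ± 0.64, adjusted *P* = 0.307). The vector lines before dox also differed from each other. Against parental H524 cells (*CHRND* at 6.65, 5.37 and 7.30), *N1ICD* cells without dox had none of 7 subunit genes called (background 12.1%), with *CHRND* the one gene at an unadjusted *P* under 0.05 (1.81 ± 0.64, adjusted *P* = 0.0537). Without library 22 the count was 2, with *CHRND* at 2.70 (adjusted *P* = 0.00238), and without library 21 it was 1. *REST* cells without dox had none called (background 0.264%), with *CHRNA1* and *CHRNA3* at unadjusted *P* values of 0.0402 and 0.0143.

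**Figure D3:**
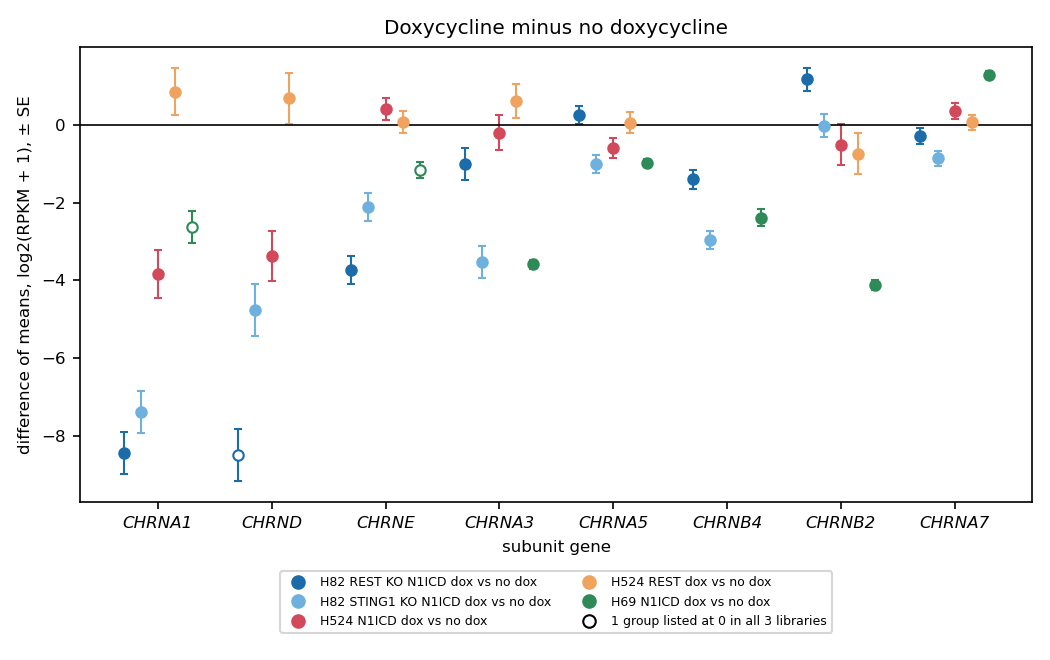
Difference of group means with minus without dox in log2(RPKM + 1), with the SE, for 8 subunit genes (x axis) in 5 comparisons that the selection did not use (colors); open circles mark comparisons in which 1 group is listed at 0 in all 3 libraries, so the size depends on the added 1, and missing points were below the filter on low values. *CHRNB2* lies at 1.16 in H82 cells labelled *REST* KO, near 0 in those labelled *STING1* KO and at -4.12 in H69.

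Parental H69 cells expressed the ganglionic and β2 genes and little of the muscle type, and *N1ICD* cells without dox also held *CHRNA1*. With *N1ICD*, *CHRNB2* fell from 8.74, 9.01 and 8.70 to 4.48, 4.62 and 4.99 (-4.12 ± 0.13, adjusted *P* = 1.22e-08). *CHRNA3* fell from 3.31, 3.73 and 3.76 to 0, 0.04 and 0 (-3.59 ± 0.12, adjusted *P* = 1.37e-08), and *CHRNB4* from 1.83, 2.87 and 2.53 to 0, 0 and 0.06 (-2.39 ± 0.22, adjusted *P* = 1e-05). Both were thus at or near 0 with dox. *CHRNA5*, their neighbor, stayed at 2.82, 2.92 and 2.74 from 3.75, 3.91 and 3.75, a change of -0.98 ± 0.09 that was just under the minimum fold (adjusted *P* = 9.62e-06).

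*CHRNA7* was the one subunit gene that rose with *N1ICD* in H69, from 0.59, 0.20 and 0.30 to 1.58, 1.67 and 1.68 (1.28 ± 0.10). Parental H69 libraries had at most 0.117, so it passed the filter only through the dox libraries, and its rise is given as a description. *CHRNA7* shares exons with the partial duplicate *CHRFAM7A*, which stood at 0.46, 0.02 and 0.04 without dox and at 0.60, 0.60 and 0.50 with it, and reads of the pair may have been split between them. *CHRNA1* (3.64, 2.62 and 1.63 without dox) and *CHRNE* (1.05, 1.37 and 1.07) were listed at 0 in all 3 dox libraries. *CHRNA1* passed the filter only through the *N1ICD* libraries without dox. *CHRNE* would not have passed without them either, with 0.61 to 1.52 (median 1.02) in parental H69 libraries. The falls of both genes are therefore also a description. *CHRND* reached only 1.78 in 1 of the 6 libraries and was not tested. In total 5 of 7 subunit genes fell and 1 rose (background 41.8%), with a median of -2.39 against 0.08 over all genes. This count includes *CHRNA1*, *CHRNE* and *CHRNA7*, from which nothing is read.

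The untreated H69 *N1ICD* cells were not equal to parental H69 cells. *CHRNA1* was 0, 0 and 0.29 in parental cells, below all 3 *N1ICD* libraries without dox (2.53 ± 0.41 higher in the *N1ICD* cells). It was the 1 of 7 subunit genes called (background 5.27%), but it passed the filter only through these *N1ICD* libraries, so nothing is read from the call. In the same libraries *NEUROD1* was 5.03, 4.77 and 3.32 in parental cells and 10.61, 8.88 and 8.69 in *N1ICD* cells without dox. Its part in the *CHRNA1* level was not tested. Across lines, the *N1ICD* response of H69 differed from that of H524 for 5 of 8 subunit genes (background 36.8%). *CHRNB2* (-3.61 ± 0.53, adjusted *P* = 1.87e-07), *CHRNA3* (-3.39 ± 0.50, adjusted *P* = 2.41e-07) and *CHRNB4* (-2.31 ± 0.36, adjusted *P* = 7.31e-07) fell more in H69. Without dox, *CHRNA3* was only 0.17 to 1.82 in H524 *N1ICD* cells, against 3.31 to 3.76 in those of H69. *CHRNB4* was 0.23 to 1.82 against 1.83 to 2.87, and was below the filter in H524. Both genes thus had less to lose in H524, and the part of the starting level in their differences was not tested. The *CHRNE* responses also differed (adjusted *P* = 0.00425), with *CHRNE* listed at 0 with dox in H69 and at a mean of 0.88 without and 1.28 with dox in H524. The *CHRND* difference (adjusted *P* = 0.0132) set the fall in H524 against H69 libraries mostly listed at 0.

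COR-L88 cells had *CHRNB2* as their one abundant subunit gene. *CHRNB2* was 7.75, 7.41 and 7.51 with DMSO, 1.30, 2.30 and 1.11 with TAS1440 (-5.99 ± 0.27, adjusted *P* = 2.33e-09) and 1.74, 2.03 and 1.84 with TAS1440 plus GSI (-5.69 ± 0.27 against DMSO, adjusted *P* = 5.91e-09). The treated groups overlapped, with a difference of -0.30 ± 0.27 (adjusted *P* = 0.393), so no return of *CHRNB2* with GSI was detectable. Over the same groups *REST* was 3.52 to 3.57, then 6.25 to 6.57 and then 6.19 to 6.32. The 8 NE markers summed to 45.3 to 46.1 with DMSO, 17.8 to 20.3 with TAS1440 and 29.2 to 29.8 with TAS1440 plus GSI, and in the cells labelled *STING1* KO to 46.6 to 47.3 with DMSO and 25.0 to 27.0 with TAS1440. The part of *REST* or of this shift in the *CHRNB2* level was not tested.

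In COR-L88 cells labelled *STING1* KO, *CHRNB2* fell from 7.50, 7.06 and 7.94 to 2.12, 1.75 and 1.83 with TAS1440 (-5.60 ± 0.27, adjusted *P* = 4.39e-09). Its response did not differ from that of intact cells past the threshold (0.39 ± 0.39, adjusted *P* = 0.567), and none of 5 subunit genes did (background 4.23%; 0 at an unadjusted *P* under 0.05). *CHRNA1* fell in the labelled cells, from 1.14, 1.46 and 1.49 to 0.66, 0.31 and 0 (-1.04 ± 0.30, adjusted *P* = 0.0119), although the fold was under 1 without library 41, 42 or 45. Counted over the comparison, 2 of 5 genes fell (background 16.0%).

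*CHRND* was low and uneven in COR-L88. It was 2.30, 2.11 and 2.81 with DMSO, 0, 0 and 1.65 with TAS1440 and 1.41, 3.22 and 2.07 with TAS1440 plus GSI. TAS1440 gave a lower level than DMSO (-1.86 ± 0.58, adjusted *P* = 0.014) and than the combination (-1.68 ± 0.58, adjusted *P* = 0.0286), but the latter groups overlapped and that call was lost without library 13, 14, 17 or 18 and when only the compared groups entered the model. The call against DMSO was lost without library 12, 13 or 14. TAS1440 against DMSO thus had 2 of 5 subunit genes lower (background 22.8%), TAS1440 against the combination 1 (background 14.7%), and the combination against DMSO 1, *CHRNB2* (background 9.02%). In the labelled *STING1* KO cells *CHRND* was 2.30, 3.02 and 1.03 with DMSO and 1.13, 0.98 and 0 with TAS1440, groups that overlapped (-1.42 ± 0.58, adjusted *P* = 0.0629). *CHRNA5* stayed at 2.23 to 2.69 in all 15 COR-L88 libraries.

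**Figure D4:**
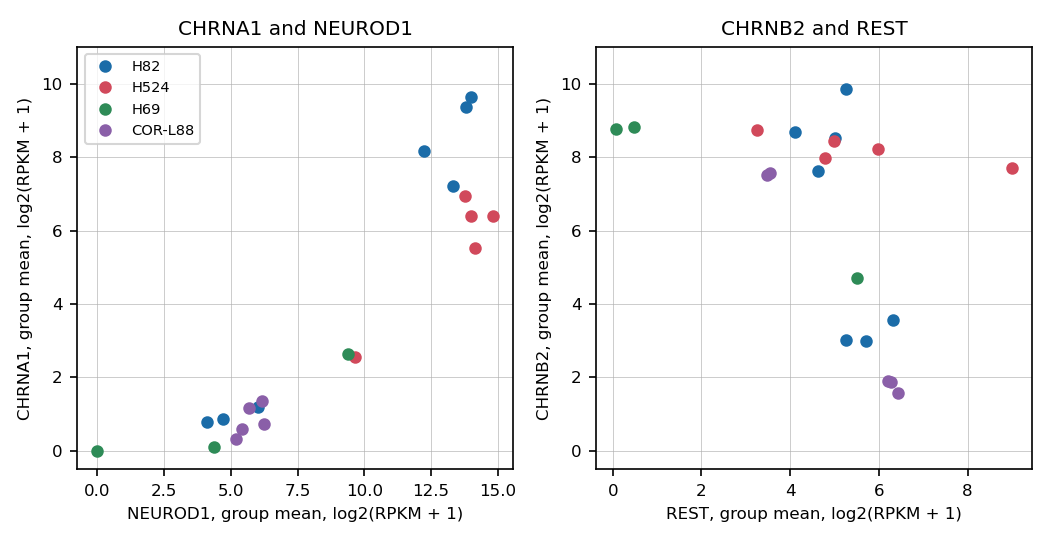
Group mean log2(RPKM + 1) of *CHRNA1* against *NEUROD1* (left) and of *CHRNB2* against *REST* (right) in 20 human groups (points, colored by line), with no test. *CHRNA1* is above 5 only in groups with *NEUROD1* above 12, and the groups fall into separate clusters; *CHRNB2* is high at both low and high *REST* in H524 and low at *REST* of 5.26 to 6.43 in the other lines, apart from H82 cells labelled *REST* KO with dox at 9.85.

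In KP1 cells, 2 subunit genes passed the filter, *Chrnb2* and *Chrnd*, and the other 7 in the table had at most 0.495 in a library. *Chrnb2* was 2.37, 2.43 and 2.08 with DMSO, 0.04, 0.09 and 0.43 with TAS1440 and 2.11, 2.35 and 2.18 with TAS1440 plus GSI. It fell with TAS1440 against DMSO (-2.11 ± 0.15, adjusted *P* = 9.81e-06) and against the combination (-2.03 ± 0.15, adjusted *P* = 1.5e-05), and the combination did not differ from DMSO past the threshold (-0.08 ± 0.15, adjusted *P* = 0.941). Here, the *Chrnb2* level with GSI was within the spread of DMSO, unlike *CHRNB2* in COR-L88, a contrast between tables that was not tested. The GSI compound and dose also differed between these lines, so line and inhibitor cannot be told apart. *Rest* was 0.02 to 0.03, then 1.65 to 2.48 and then 0.72 to 1.02 over the same groups. The NE markers summed to 30.3 to 33.4, then 0.695 to 15.5 and then 31.0 to 32.3, and the 3 fibroblast markers to 0.0520 to 0.0640, then 4.32 to 8.82 and then 0.148 to 0.498. Their part in the changes of *Chrnb2*, *Chrnd* and *Chrnb1* was not tested.

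*Chrnd* in KP1 was 1.40, 1.49 and 1.42 with DMSO, 2.98, 0.94 and 1.02 with TAS1440 and 3.87, 4.38 and 3.34 with TAS1440 plus GSI. Library 4, the first of the TAS1440 group, stood apart from the other two. TAS1440 against DMSO gave 0.21 ± 0.50 (adjusted *P* = 0.77) and -0.46 without library 4. TAS1440 was lower than the combination (-2.22 ± 0.50, adjusted *P* = 0.00783), and the combination was higher than DMSO (2.43 ± 0.50, adjusted *P* = 0.0445), the latter call being lost in each of the 6 fits without 1 library, where the difference stayed at 2.17 to 2.69. Among the 2 subunit genes tested, 1 was called for TAS1440 against DMSO (background 18.8%), 2 for TAS1440 against the combination (background 16.5%) and 1 for the combination against DMSO (background 1.21%). *Chrnb1*, which encodes the β1 partner of δ and was not among the selected genes, went from 0.24, 0.22 and 0.14 to 3.39, 3.04 and 3.30 with TAS1440 (3.04 ± 0.12) and stood at 0.49, 0.61 and 0.42 with GSI added. It passed the filter only through the TAS1440 libraries, so this change is given as a description.

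**Figure D5:**
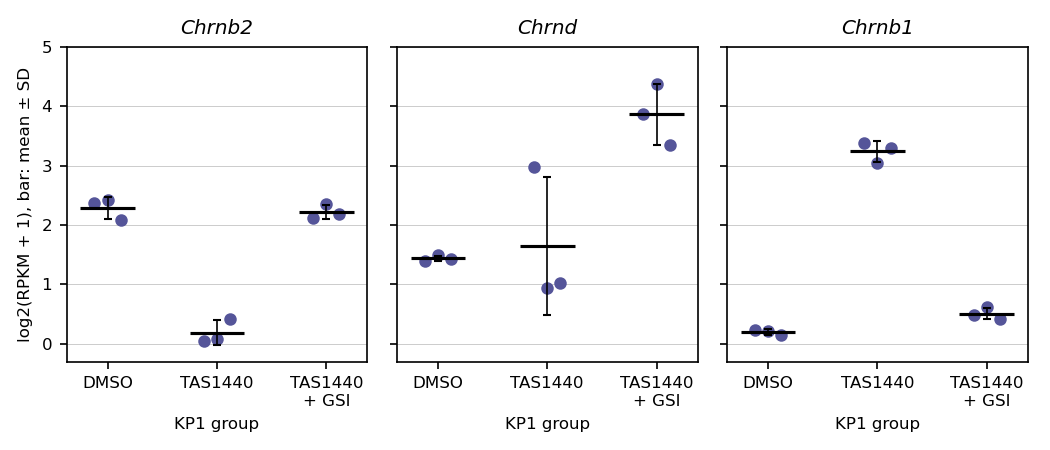
Log2(RPKM + 1) of *Chrnb2*, *Chrnd* and *Chrnb1* in 9 KP1 libraries (points) with the mean and SD of 3 libraries per group (black). TAS1440 libraries are lowest for *Chrnb2* (0.04 to 0.43) and highest for *Chrnb1* (3.04 to 3.39), and the addition of GSI brings both near DMSO, whereas *Chrnd* is highest with TAS1440 plus GSI (3.34 to 4.38).

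The other subunit genes and the partners of the receptor came from lists chosen with earlier results known. Counts of calls per gene below run over comparisons of unlike kinds that share libraries and in which 0.264% to 41.8% of all genes were called. Since genes were named for having the most calls, these counts are a description. Of 7 other subunit genes, *CHRNB1* was called in 9 of 16 comparisons of 2 groups, 6 higher and 3 lower. The 16 include those of KP1, where it passed the filter only through the TAS1440 libraries. In human cells it was 4.29, 4.01 and 3.93 in parental H82 and 0.52, 0.90 and 0.81 in COR-L88 with DMSO. With *N1ICD* it was 1.12 ± 0.18 higher in H69 (adjusted *P* = 0.000379) and changed by -1.14 ± 0.20 in H82 cells labelled *REST* KO (adjusted *P* = 0.000105). *CHRNA9*, an α subunit of sensory hair cells, was called in 3 of 9, 2 higher and 1 lower, among them COR-L88 with TAS1440 (1.17 ± 0.29, adjusted *P* = 0.00348). *CHRNA2*, *CHRNA10* and *CHRNB3* were below the filter.

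Genes of the neuromuscular junction were called in both directions. *LAMB2*, a laminin chain of the synaptic basal lamina, and *AGRN*, the nerve-derived organizer of receptor clusters, were each called in 11 of 16 comparisons, higher in all 11. With *N1ICD*, *AGRN* was 2.55 ± 0.37 higher in H82 cells labelled *REST* KO (adjusted *P* = 1.45e-05) and 2.06 ± 0.15 higher in H69 (adjusted *P* = 1.77e-06). *SNTB1*, a syntrophin of the dystrophin complex, was called in 7 of 13, 5 higher and 2 lower. *MUSK*, the receptor kinase that agrin activates, was under 1 in every group mean and not tested, and *RAPSN*, which anchors the receptor, was lower in 2 of 7, by 1.13 in H82 cells labelled *STING1* KO (SE 0.10, adjusted *P* = 1.05e-07) and by 1.53 in H524 with *N1ICD* (SE 0.47, adjusted *P* = 0.023). *DOK7*, an activator of *MUSK*, was higher in 6 and lower in 1 of 16. *LRP4*, the agrin receptor, was higher in 2 and lower in 1 of 11. In H82 cells labelled *STING1* KO, 7 of 13 tested genes of this list rose with *N1ICD* and 4 fell (median 1.34 against 0.01 over all genes, background 20.2%).

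Chaperones and accessory proteins of nicotinic receptors showed no common direction. *VSNL1*, a calcium sensor that acts on α4β2 receptors, was called in 7 of 13 comparisons, 6 higher and 1 lower, and *LYPD1*, a prototoxin that modulates the receptor, in 6 of 8, all higher. *NETO1* was higher in 3 and lower in 3 of 9. *RIC3*, a chaperone of receptor assembly, was lower in 2 of 3, and *TMEM35*, the chaperone NACHO, higher in 1 and lower in 1 of 11. In H69 with *N1ICD*, 4 of 10 tested genes of the list rose and 4 fell (median 0.31 against 0.08 over all genes, background 41.8%), among them *TMEM35*, which fell by 3.63 on the log2 scale (SE 0.35, adjusted *P* = 1.32e-05), and *LYPD6*, another prototoxin, which fell by 2.45 (SE 0.07, adjusted *P* = 7.55e-09).

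Genes of acetylcholine supply and breakdown had calls in both directions. *SLC18A3*, the vesicular acetylcholine transporter, was called in 4 of 13 comparisons, 3 higher and 1 lower, *CHAT*, which makes acetylcholine, in 2 of 9, 1 higher and 1 lower, and *BCHE*, which degrades choline esters, in 4 of 9, 3 higher and 1 lower. In H69 with *N1ICD*, *SLC18A3* fell by 4.34 on the log2 scale (SE 0.28, adjusted *P* = 8.7e-07) and *CHAT* by 3.34 (SE 0.30, adjusted *P* = 8.05e-06), 2 of the 4 genes that fell among 8 tested, a share near the background of 41.8%. Both were higher in those cells without dox than in parental H69, by 2.40 ± 0.28 for *SLC18A3* (adjusted *P* = 0.000431) and 2.45 ± 0.30 for *CHAT* (adjusted *P* = 0.000581). In COR-L88, *SLC18A3* was 1.88 ± 0.33 higher with TAS1440 than with DMSO (adjusted *P* = 0.000289). *BCHE* was lower in H524 *N1ICD* cells without dox than in parental cells (-1.64 ± 0.29, adjusted *P* = 0.00157) and rose in H524 with *N1ICD* (2.62 ± 0.29, adjusted *P* = 9.38e-06) and in H82 cells labelled *STING1* KO (2.50 ± 0.26, adjusted *P* = 4.67e-07). Of the muscarinic receptors, *CHRM4* fell by 1.98 on the log2 scale in H69 (SE 0.10, adjusted *P* = 1.39e-07) and was 1.28 ± 0.22 higher in H82 cells labelled *REST* KO (adjusted *P* = 9.99e-05), and *CHRM2* fell by 1.87 in H69 (SE 0.12, adjusted *P* = 1.13e-06).

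Of 26 regulators listed, *INSM1*, a factor of NE differentiation, was lower in 11 of 16 comparisons, *HES6*, an inhibitor of *HES1*, lower in 10 of 16, and *REST* higher in 9 and lower in 1 of 16. The 16 for *REST* include H524 comparisons in which *REST* was itself expressed from a vector. Nothing is read from these counts.

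Muscle-type subunits can mark skeletal muscle differentiation, so muscle markers are given beside them. *MYOD1*, the myogenic factor, was 6.95, 6.86 and 6.74 without dox and 2.56, 2.71 and 3.93 with it in H82 cells labelled *REST* KO, and 7.21, 7.57 and 6.99 and then 0.45, 0.80 and 1.08 in those labelled *STING1* KO. In H524 *N1ICD* cells it was 6.19, 8.52 and 7.73 and then 3.74, 3.49 and 3.94, and in H69 *N1ICD* cells 6.37, 4.59 and 5.76 and then 0.87, 0 and 0.85. Of the 10 muscle markers *MYF5*, *MYF6* and *MYH8* were below the filter in every comparison, and *MYOG*, which follows *MYOD1* in differentiation, had at most 3.16 in a library. The summed log2 value of the 10 markers was 9.73 to 11.0 without dox and 12.5 to 13.4 with it in the cells labelled *REST* KO, and 13.4 to 14.3 and then 3.21 to 7.77 in those labelled *STING1* KO. It was 12.4 to 17.7 and then 8.50 to 10.2 in H524 *N1ICD* cells, and 8.66 to 10.5 and then 4.47 to 5.70 in H69 *N1ICD* cells. Of these cells only those labelled *REST* KO had a higher sum with dox, while *CHRNA1* fell in all of them. Single markers went both ways. With *N1ICD*, 2 of 6 tested rose and 2 fell in cells labelled *REST* KO (background 29.9%). In those labelled *STING1* KO 1 of 6 rose and 3 fell (20.2%), in H524 1 of 5 and 2 (18.6%), in H69 1 of 3 and 2 (41.8%). Over all comparisons of 2 groups, *TNNT3* was higher in 4 of 7, *DES* higher in 2 and lower in 3 of 7, and *CKM* higher in 1 and lower in 6 of 13. The part of muscle genes in these results was not tested.

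The genes most like each subunit gene over the 20 human group means were taken from 15887 others by Pearson correlation, as a description with no *P* value, since groups of a line share a parent and fall into clusters. For *CHRNA1* they were *LPPR5* (0.96), *CDHR1* (0.95) and *ELMOD1* (0.94), with *NEUROD1* 10th (0.92), *CHRND* 19th (0.90) and *MYOD1* 287th (0.78). For *CHRND* they were *CACNA2D4* (0.94), *NISCH* (0.93) and *AANAT* (0.92), with *CHRNA1* 7th and *NEUROD1* 40th (0.84). *CHRNA3* and *CHRNB4*, whose genes lie 2815 bases apart, were each the first for the other (0.91), followed by *FUT3* (0.90) and *PRELID2* (0.88) for *CHRNA3* and by *LINC00337* (0.89) and *FUT3* (0.87) for *CHRNB4*.

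*CHRNB2* was most like *UNC13A* (0.95), *RUNDC3A* (0.94) and *SNAP25* (0.94), and *UNC13A* and *SNAP25* encode parts of the machinery of vesicle release. *CHRNA7* was most like *PKNOX2* (0.97), *CHRFAM7A* (0.96) and *NDRG2* (0.96), of which *CHRFAM7A* may share reads with it. *CHRNE* was most like *IL2RG*, *ERN1* and *RGS9BP* (0.94 to 0.92), and *CHRNA5* like *FAM60A* (0.88), *TBCC* (0.84) and *C21orf37* (0.84). With Spearman correlation 2 of the 3 genes were the same for *CHRNA7* and for *CHRNB2*, 1 for *CHRND* and none for the other 5, so these lists depend on the measure. Overlapping genes add a limit: 1712 of 3521 exon bases of *CHRNE* are shared with *C17orf107* and 198 of 3623 of *CHRNA5* with *CHRNA3*, each on the opposite strand, and whether the counting used strand is not stated.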

How the data were processed

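PolyA RNA was sequenced from 60 human and 9 mouse libraries. Per the submitters' processing notes the tools were cutadapt, STAR, RSEM and edgeR, with builds hg19 and mm10. The deposited tables hold log2 values that the authors made from RPKM per gene, 1 table per species, and that 1 was added before the log is read from the floor of 0. Read totals are not in these values, so depth is unknown, and relative library sizes, estimated from the values of 1554 human and 1463 mouse genes, spanned 0.698 to 1.52 and 0.903 to 1.07. No pair of libraries was identical. Whether counting used strand is not given in the sources used here.

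For each line, limma 3.58.1 (R 4.3.3) with trended variances was fitted over all its groups on the log2 values as deposited, on genes with at least 1 in at least 3 libraries, with Benjamini-Hochberg adjustment over all genes tested and two-sided tests. The difference between H69 and H524 came from a fit of all human groups. The fits were tested on simulated data. The 10 genes, the lists and the tests were chosen with earlier results of these data known. The genes named are all members, up to 3 per list called in the most comparisons, up to 4 direct partners of a subunit per list, and the 3 genes most like each member over group means. Alternatives were no filter, 0.1 added in place of 1, quantile normalization, median centring, only the compared groups, variances without a trend, and each library left out. Motifs were searched and figures drawn with Python 3.11.15, numpy 2.4.6, pandas 2.3.3 and matplotlib 3.10.9. Sequences are from RefSeq (GRCh38.p14) and gene positions from the GRCh37 annotation.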

Additional observations from a re-analysis of the deposited data

Results flagged for a closer look

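Each result here is a difference between 2 responses by limma's test of the difference itself, with Benjamini-Hochberg adjustment. The 2 responses came from 2 backgrounds or lines with *N1ICD*, or in H524 from 2 different vectors. In H82, the dox response of cells labelled *STING1* KO minus that of cells labelled *REST* KO was -2.51 for *CHRNA3* (adjusted *P* = 0.00533), -1.56 for *CHRNB4* (adjusted *P* = 0.00295), -1.25 for *CHRNA5* (adjusted *P* = 0.0137), 3.72 for *CHRND* (adjusted *P* = 0.00992) and 1.62 for *CHRNE* (adjusted *P* = 0.0376).

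In H524, the response to *N1ICD* minus that to *REST* was -4.69 for *CHRNA1* (adjusted *P* = 0.00164) and -4.04 for *CHRND* (adjusted *P* = 0.00655). The *N1ICD* response of H69 minus that of H524 was -3.39 for *CHRNA3* (adjusted *P* = 2.41e-07), -3.61 for *CHRNB2* (adjusted *P* = 1.87e-07), -2.31 for *CHRNB4* (adjusted *P* = 7.31e-07), -1.57 for *CHRNE* (adjusted *P* = 0.00425) and 2.77 for *CHRND* (adjusted *P* = 0.0132). The values for *CHRND* in H82 and for *CHRND* and *CHRNE* in H69 against H524 include a group listed at 0, so their size depends on the 1 added before the log. With 0.1 added, *CHRND* in H69 against H524 was 1.85 (adjusted *P* = 0.32). *CHRNA3* and *CHRNB4* started lower in H524 than in H69, and in H82 both started lower in the cells labelled *REST* KO. The part of these starting levels in the differences was not tested. The value for *CHRNA5* in H82 was -0.89 without library 58, under the minimum fold. The call of *CHRNE* in H82 was lost with no filter (adjusted *P* = 0.0532) and in most of the fits without 1 library.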

How the results depend on the processing

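Counts of subunit genes called stayed within 1.5 times in 239 of the 264 alternatives. With 0.1 added in place of 1, the count became 2 for H524 *N1ICD* with dox against *REST* with dox, 2 for H69 *N1ICD* without dox against parental, and 0 for KP1 TAS1440 plus GSI against DMSO, which was also 0 with no filter and without a variance trend. With median centring, H524 *N1ICD* without dox against parental became 1, and with only the compared groups COR-L88 TAS1440 against TAS1440 plus GSI became 0. Leaving out 1 library gave 1 to 2 for H524 *N1ICD* against *REST* with dox, 0 to 2 for H524 *N1ICD* without dox against parental, 1 to 2 for COR-L88 TAS1440 against DMSO, 0 to 1 for TAS1440 against TAS1440 plus GSI, 1 to 2 for COR-L88 labelled *STING1* KO, and 0 for KP1 TAS1440 plus GSI against DMSO. Among values of single genes, 757 kept direction and call, 40 lost and 22 gained the call, and 6 changed sign. The sign changes were in *CHRNB2* of H82 cells labelled *STING1* KO (-0.25 to 0.19 with 1 library left out), *Chrnd* of KP1 with TAS1440 against DMSO (-0.46 to 0.56), and, with 0.1 added, the differences of *CHRNA1* between H82 cells labelled *STING1* KO and *REST* KO (-0.42) and between H69 and H524 (-1.62), none of them called. In the comparison used to pick the genes, *CHRNA1* was -9.71 with 0.1 added. The cause of these shifts was not tested. No paired analysis was possible because library numbers are unique within each table and pair no groups. Depth is unknown, and 3 libraries per group limit precision.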
